A study of Homo sapiens with 24 samples.

Results

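Prostaglandin E2 is a lipid mediator made from membrane phospholipid in successive enzymatic steps, and 9 genes of that route were read in RNA from 4 breast cancer cell lines in which the RNA-editing enzyme ADAR1 had been knocked down. The genes were taken by symbol from a table of 37416 genes. PTGES was selected on its lower level in shADAR1 MDAMB231 cells in an earlier analysis of these libraries, so its value in that line is given here as a description with no test. The other 8 genes were listed for their place in the pathway, and the tests below are read with that choice in mind.

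The lines were BT549, HCC1806, MDAMB231 and MDAMB468, which the series describes as triple-negative. Cells of each received a lentiviral short hairpin RNA, either non-targeting (shNT) or against ADAR1 (shADAR1), with an infection of 24 h followed by 72 h in puromycin at 2 µg/ml, so both arms had been infected and selected. All were grown in DMEM with serum, and no other drug or cytokine is named in the labels. Each of the 8 groups had 3 libraries labelled as biological replicates, 24 in all, made from total RNA after removal of ribosomal RNA. The sequence of the hairpin and the number of hairpins per arm are not given in the sources used here, and each line is a single established culture rather than a class of tumours.

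In this pathway cytosolic phospholipase A2, encoded by PLA2G4A, frees arachidonic acid from membranes. The cyclooxygenases COX-1 (PTGS1, constitutive in many tissues) and COX-2 (PTGS2, inducible by cytokines and growth factors) turn it into prostaglandin H2, and prostaglandin E synthases turn that into prostaglandin E2. PTGES encodes the inducible, glutathione-dependent microsomal synthase that is usually found coupled to COX-2, PTGES2 encodes a membrane-associated synthase, and PTGES3 encodes p23, a cytosolic synthase better known as a co-chaperone of HSP90. HPGD encodes the dehydrogenase that begins the breakdown of prostaglandin E2, and PTGER2 and PTGER4 encode EP2 and EP4, receptors that raise cyclic AMP. In breast cancer COX-2 and prostaglandin E2 have long been studied for their part in inflammation, invasion and immune evasion.

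PTGES lies on chromosome 9 at 129738331 to 129753047 on the minus strand (4 exon intervals, 1896 exonic bases), in the coordinates of the deposited files. PTGES2 (chromosome 9, 128120693 to 128128462, minus) and PTGS1 (chromosome 9, 122370530 to 122395703, plus) lie on the same chromosome. PTGS2 (chromosome 1, 186671791 to 186680427, minus) and PLA2G4A (chromosome 1, 186828953 to 186988981, plus) are near each other and point in opposite directions. PTGES3 is on chromosome 12 (56663341 to 56688408, minus), HPGD on chromosome 4 (174490177 to 174523154, minus), PTGER2 on chromosome 14 (52314305 to 52328606, plus) and PTGER4 on chromosome 5 (40679498 to 40693735, plus). All 9 intervals equalled those of GENCODE 29 on GRCh38. None shared exonic bases with another listed gene. PTGES3 has pseudogene copies elsewhere in the genome, so its counts are uncertain to the extent that reads could be split among them.

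The 190 bases from 200 to 11 bases upstream of the RefSeq start site (GRCh38.p14) are shown for PTGES and PTGS2, because they are the inducible partners of the route. Both are written 5′ to 3′ on the minus strand, that of the gene, and capitals mark matches to the TATA-box motif TATAAA, to the GC box of Sp1-type factors, written GGGCGG, to the site of EGR-type zinc fingers, written GCGTGGGCG, and, by name, the NF-kB consensus. Both strands were searched.
PTGES, chr9:129753053-129753242: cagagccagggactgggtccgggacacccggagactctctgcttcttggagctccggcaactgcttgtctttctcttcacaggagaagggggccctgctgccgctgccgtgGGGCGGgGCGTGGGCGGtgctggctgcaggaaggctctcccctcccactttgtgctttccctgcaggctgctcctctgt
PTGS2, chr1:186680434-186680623: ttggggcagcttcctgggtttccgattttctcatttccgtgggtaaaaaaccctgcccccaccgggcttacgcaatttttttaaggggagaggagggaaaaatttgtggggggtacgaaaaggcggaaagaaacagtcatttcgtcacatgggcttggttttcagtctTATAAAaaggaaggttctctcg

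The PTGES window held GGGCGG at 89 to 84 and again at 78 to 73 bases upstream of the start site, and GCGTGGGCG at 82 to 74, which overlaps the second GC box. It held no TATAAA. The PTGS2 window held 1 TATAAA, at 32 to 27 bases upstream, and none of the other 3 motifs. Of 27305 RefSeq promoters of 300 bases, 44.6% held GGGCGG, 0.784% held GCGTGGGCG, 12% held TATAAA and 10.8% held the NF-kB consensus. A match is a run of letters and not evidence of binding, and the absence of one says only that these letters are not in the window. GC content of the 300 bases around the start was 61.7% for PTGES, 50.7% for PTGS2 and 39.7% for PLA2G4A, whose window held none of the 4 motifs. EGR1, the best known factor for the GCGTGGGCG site, was named after its values had been seen. Without the replicate block it was not called in any line: the log2 fold change was 0.55 for HCC1806, 0.62 for MDAMB231, 0.20 for MDAMB468 and -0.47 for BT549 (adjusted p 0.857 to 1 with edgeR). Its level in MDAMB231 ran from 18.7 to 401 CPM (defined below) in shNT and from 43.0 to 622 CPM in shADAR1. With the replicate number as a replicate block in all 4 lines it was called in BT549 (-0.48, adjusted p 0.0391), HCC1806 (0.67, adjusted p 0.00895) and MDAMB231 (0.76, adjusted p 0.000646), in opposite directions. With the block only in those 3 lines, the ones read as paired, the sizes were alike and none was called (adjusted p 0.448, 0.315 and 0.0751).

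Levels are read counts relative to library size after TMM scaling (CPM), and changes are log2 fold changes of shADAR1 over shNT with their standard error (SE) from one edgeR quasi-likelihood model of all 24 libraries. A gene was called when its Benjamini-Hochberg adjusted p, over all 21352 genes tested, was under 0.05. Total counts per library ran from 10370645 to 97218217. ADAR, the targeted gene, stood at 26.1%, 33.1%, 21.9% and 37.1% of the shNT level in BT549, HCC1806, MDAMB231 and MDAMB468, with no overlap between arms in any line (adjusted p 3.18e-05 or lower). The lines differed in cell state: EPCAM, an epithelial adhesion molecule, averaged 299 CPM in HCC1806, 260 in MDAMB468, 8.55 in MDAMB231 and 0.00641 in BT549, while vimentin (VIM) averaged 2436 CPM in BT549 and 4664 in MDAMB231 against 10.0 and 9.66 in HCC1806 and MDAMB468. Not every marker split the lines that way. The mesenchymal markers ZEB1 and FN1 were also higher in BT549 and MDAMB231 than in HCC1806 and MDAMB468. CDH2 and SPARC averaged 247 and 3091 CPM in BT549 but 0.524 and 0.778 in MDAMB231. CDH2 averaged 29.6 CPM in HCC1806 and 1.53 in MDAMB468. Of 9 breast epithelial markers, 8 averaged 0.716 CPM or less in BT549, among them KRT8, KRT18 and KRT19, while EGFR averaged 353 CPM there. In MDAMB231 5 of the 9 averaged 1 CPM or more, with KRT8, KRT18 and KRT19 at 499, 244 and 293 CPM. ESR1, the oestrogen receptor gene, averaged 21.4 CPM in HCC1806 and 7.36 in MDAMB468. Of 10 leukocyte, endothelial, platelet and mast cell markers, the B-cell marker MS4A1 had no count in any library, and PF4, TPSAB1 and CD3E did not exceed 0.166 CPM. The highest line means were those of PECAM1 (4.31 CPM in MDAMB231), CD14 (3.54 in MDAMB468) and ITGA2B (2.25 in HCC1806). Their summed level per library was 1.37 to 1.83 CPM in shNT and 1.91 to 2.01 in shADAR1 for BT549, 3.75 to 5.23 and 4.88 to 7.54 for HCC1806, 4.85 to 6.37 and 4.83 to 6.63 for MDAMB231, and 6.16 to 9.02 and 6.57 to 9.42 for MDAMB468, and their part in the results was not tested. In bulk RNA, fewer cells carrying a transcript and less of it per cell cannot be told apart.

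PTGES spanned a wider range between lines than between the arms of a line. In the shNT arm it averaged 87.4 ± 22.6 CPM in HCC1806 (SD, n = 3), 34.5 ± 15.2 in MDAMB231, 21.6 ± 5.25 in MDAMB468 and 0.764 ± 0.109 in BT549. HCC1806 stood above MDAMB231 (log2 difference 1.33, SE 0.36, adjusted p 0.00285) and MDAMB468 stood 28.1-fold above BT549 (adjusted p 3.06e-09). MDAMB231 and MDAMB468, neighbours in that order, overlapped and were not called apart (0.69, SE 0.36, adjusted p 0.101).

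In MDAMB231, the line that chose the gene, PTGES measured 29.4, 22.5 and 51.6 CPM in shNT replicates 1, 2 and 3 and 3.50, 7.56 and 14.7 CPM in the same-numbered shADAR1 libraries. Every shADAR1 library was below every shNT library. The fitted log2 fold change was -1.98 (SE 0.38), which is 25.3% of the shNT level. In that contrast 2.01% of all genes were called, and PTGES was picked from among them. Leaving out shADAR1 replicate 3, the highest of its arm, moved the value to -2.60, a factor of 1.53, and leaving out shNT replicate 3 moved it to -1.55.

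In the 3 lines on which PTGES was not selected, it was also lower in shADAR1, by less, and was not called in any of them. Earlier results of these data were known when the genes were chosen, so these lines are not shown to be independent of the choice. BT549 had 0.639, 0.817 and 0.837 CPM in shNT and 0.105, 0.342 and 0.556 in shADAR1 (36, 53 and 36 counts against 6, 31 and 34). The arms did not overlap, and the log2 fold change was -1.16 (SE 0.58, adjusted p 0.795). MDAMB468 had 27.6, 18.1 and 19.0 CPM in shNT and 15.8, 10.8 and 14.2 in shADAR1. These arms did not overlap either, with a log2 fold change of -0.67 (SE 0.36, adjusted p 1). HCC1806, where PTGES is most abundant, had 106.6, 62.6 and 93.1 CPM in shNT and 71.4, 46.9 and 83.1 in shADAR1. Its arms overlapped, and the log2 fold change was -0.38 (SE 0.35, adjusted p 1).

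The mean of these 3 line effects, an average added after the data had been seen, was -0.74 (SE 0.26, unadjusted p 0.00857, adjusted p 0.283 with edgeR), and 0.974% of genes were called in it. DESeq2 gave an adjusted p of 0.137. With the replicate number as a replicate block in BT549, HCC1806 and MDAMB231, the lines read as paired, the mean was -0.76 (SE 0.17). Its adjusted p was 0.00944, in a fit that called 4.83% of genes. That fit was not planned, and its pairing was read from these same libraries. An adjusted p under 0.05 for PTGES outside MDAMB231 was thus reached only with a replicate block, and is read as a description. BT549 and HCC1806 were read as paired, and PTGES was not selected on them. In these lines PTGES was lower in the shADAR1 library in 6 of 6 same-numbered pairs, with log2 ratios of -0.91 to -0.16 (prior of 0.5 CPM). The share of all genes with such a count, or with arms that do not overlap, was not computed, so neither is read as a result.

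**Figure D1:**
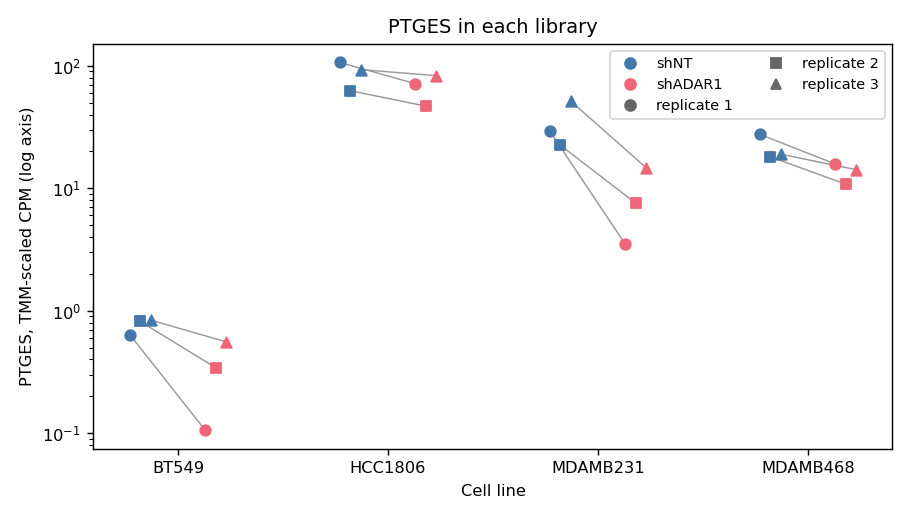
PTGES in each of the 24 libraries, as TMM-scaled CPM on a log axis, by cell line and hairpin. Lines join libraries of the same replicate number and run downward from shNT to shADAR1 in each cell line, which in MDAMB231 follows from the choice of the gene. Levels run from 106.6 CPM in HCC1806 to 0.105 CPM in BT549.

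The other prostaglandin E synthases did not share that pattern. PTGES2 measured 107.1, 94.1 and 66.0 CPM in BT549 shNT and 92.9, 94.9 and 76.5 in shADAR1, a spread within an arm that is wider than the distance between arms. Its log2 fold change was 0.08 for MDAMB231, -0.02 for BT549, -0.05 for MDAMB468 and -0.07 for HCC1806, with SEs of 0.13. PTGES3 was the most abundant of the 9, at 230.7 to 329.5 CPM in shNT. Its changes were 0.17 in BT549 and in MDAMB231 and under 0.01 in size in HCC1806 and MDAMB468 (SE 0.11 in each). Neither gene was called in any line. PTGES3 had a 4-line average of 0.08 (SE 0.06, adjusted p 0.618). Its adjusted p became 0.0422 with the replicate number as a block in all 4 lines (13.2% of genes called). It was 0.0757 with the block in the 3 lines read as paired.

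Compared per length, in the deposited RPKM, the place of PTGES among the synthases differed by line. In HCC1806 shNT cells PTGES was at 43.7 ± 11.7 RPKM, above PTGES2 at 20.6 ± 1.38 and below PTGES3 at 91.4 ± 9.97. In BT549 shNT cells PTGES was at 0.389 RPKM against 28.1 for PTGES2. In MDAMB231 PTGES averaged 18.3 ± 7.96 RPKM in shNT, within its spread of PTGES2 at 15.6 ± 1.26, and 4.58 ± 3.12 in shADAR1, where PTGES2 was at 16.5 ± 1.58. In MDAMB468 PTGES was at 12.4 RPKM in shNT and 7.75 in shADAR1, below PTGES2 in both arms (16.8 and 16.1).

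Of the cyclooxygenases, COX-2 differed most between lines. PTGS2 measured 100.5, 126 and 68.1 CPM in HCC1806 shNT, 4.79 ± 0.66 in MDAMB231 and 2.56 ± 0.09 in BT549, and it had 0 counts in all 6 MDAMB468 libraries. A count of 0 there allows up to 0.0474 to 0.123 CPM per library (3 counts, counting error only). HCC1806 was 21-fold above MDAMB231, MDAMB231 was 1.82-fold above BT549 (adjusted p 0.0268), and BT549 was at least 102-fold above a floor of 3 counts over the MDAMB468 group. PTGS1 was low throughout, at 4.14 ± 1.53 CPM in HCC1806, 2.25 ± 1.66 in MDAMB468, 1.16 ± 0.45 in MDAMB231 and 0.0324 ± 0.0309 in BT549. The step down to BT549 was called (adjusted p 1.16e-05) and the steps among HCC1806, MDAMB468 and MDAMB231 were not. Per length, PTGS2 made up 98.9% of the summed COX RPKM in BT549, 96.3% in HCC1806, 82.1% for MDAMB231 and 0% for MDAMB468. MDAMB468 thus had PTGES RNA with PTGS1 as the sole cyclooxygenase detected at this depth, and BT549 had PTGS2 with PTGES under 1 CPM.

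Neither cyclooxygenase was called after ADAR1 knockdown. PTGS2 in BT549 measured 2.66, 2.53 and 2.49 CPM in shNT and 3.60, 3.77 and 3.93 in shADAR1. These arms did not overlap, and the log2 fold change was 0.56 (SE 0.30, adjusted p 0.888). It was 0.41 (SE 0.27) in HCC1806 and 0.21 (SE 0.31) in MDAMB231, where arms overlapped. PTGS1 had a log2 fold change of 0.97 (SE 1.03) for BT549, -0.57 (SE 0.56) for MDAMB231 and 0.04 for both HCC1806 (SE 0.49) and MDAMB468 (SE 0.50). Its BT549 value rested on 0 to 6 counts a library.

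PLA2G4A, at the start of the route, was also missing from MDAMB468, with 0 counts in all 6 libraries. Elsewhere its shNT level was 10.6 ± 1.5 CPM in HCC1806, 9.22 ± 0.37 in BT549 and 4.04 ± 0.85 in MDAMB231. HCC1806 and BT549 were not called apart, and BT549 was 2.33-fold above MDAMB231 (adjusted p 6.14e-05). In MDAMB231, shNT libraries had 4.89, 3.18 and 4.04 CPM and shADAR1 libraries 2.01, 2.65 and 2.93. The arms did not overlap, and the log2 fold change of -0.63 (SE 0.22) had an unadjusted p of 0.0101 and an adjusted p of 0.2, so it was not called. In BT549 it was -0.14 (SE 0.20) and in HCC1806 0.02 (SE 0.20).

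HPGD, the inactivating enzyme, was at or under 1.43 CPM in every library. Its shNT level was 0.982 ± 0.310 CPM in HCC1806 and 0.865 ± 0.313 in MDAMB231, which were not called apart. BT549 had 2 counts in each of 2 libraries and none in the other 4, and MDAMB468 had 1 count in 1 of its 6 libraries, so no fold is given in either line. The changes were 0.25 (SE 0.50, adjusted p 1) in HCC1806 and -0.54 (SE 0.52, adjusted p 0.801) in MDAMB231.

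Of the receptors, PTGER4 was highest in BT549, the line with the least PTGES. Its shNT level was 43.1 ± 2.86 CPM there, 20.9 ± 0.68 in HCC1806, 14.03 ± 1.56 in MDAMB231 and 5.33 ± 0.37 in MDAMB468, and each step in that order was called (adjusted p 2.41e-07, 0.000648 and 1.00e-08). PTGES2 had the same order of lines, from 89.1 CPM to 46.7, with its last step not called. After knockdown the log2 fold changes of PTGER4 were 0.11, 0.09, 0.27 and 0.14 in BT549, HCC1806, MDAMB231 and MDAMB468 (SE 0.13 to 0.14), and none was called. Its 4-line average was 0.15 (SE 0.07, unadjusted p 0.0309, adjusted p 0.307).

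PTGER2 was under 1.2 CPM in every library. In the shNT arm it averaged 0.842 CPM in MDAMB231, 0.476 in BT549, 0.337 in MDAMB468 and 0.0822 in HCC1806, and the one step called was that down to HCC1806 (adjusted p 0.0256). In MDAMB231 it measured 1.11, 0.690 and 0.729 CPM in shNT and 0.383, 0.211 and 0.234 in shADAR1 (12, 31 and 33 counts against 8, 11 and 10). The arms did not overlap, and the log2 fold change was -1.61 (SE 0.63, unadjusted p 0.0181, adjusted p 0.272). With the replicate number as a replicate block it was -1.62 with an adjusted p of 0.0418, past the threshold, in a fit that called 11.4% of genes. In the other lines its changes were 0.29, -0.24 and 0.11 with SEs of 0.57 to 0.77.

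**Figure D2:**
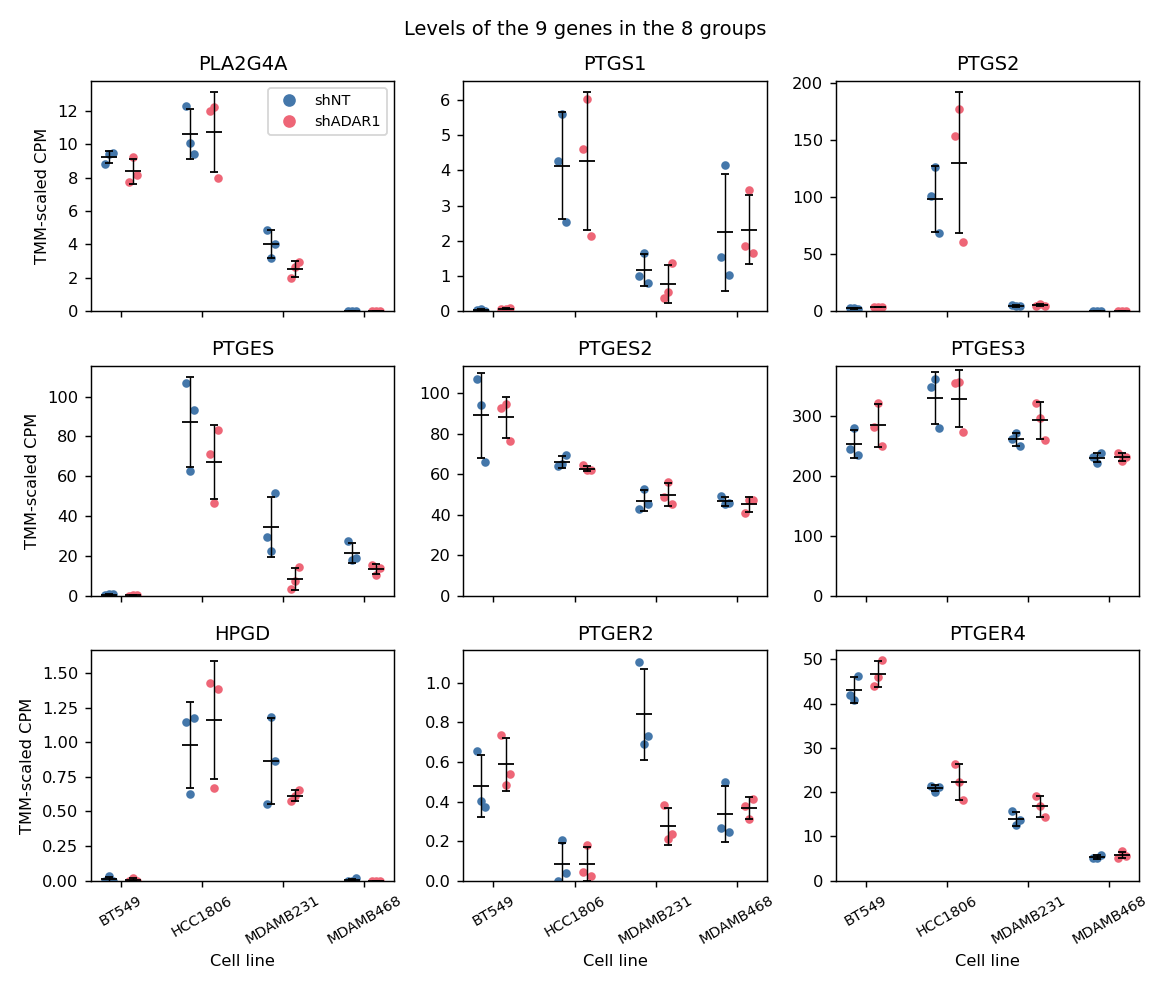
TMM-scaled CPM of the 9 genes in each library (points), with mean and SD of 3 libraries (bars), by cell line and hairpin, each panel on its own axis from 0. PTGS2 reaches 177 CPM in HCC1806 and is at 0 in MDAMB468, PTGER4 is highest in BT549, and arms of a line mostly overlap.

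Counted together, edgeR called 0 of 8 genes with a usable fold in BT549, 0 of 9 in HCC1806, 0 of 6 in MDAMB468 and, leaving PTGES aside, 0 of 8 in MDAMB231. At an unadjusted p under 0.05 the counts were 0, 0, 0 and 2, the last being PLA2G4A and PTGER2, in the order BT549, HCC1806, MDAMB468 and MDAMB231. Over all genes 6.42%, 4.35%, 3.76% and 11.7% had such a p. The share called after adjustment was 0.473% for BT549, 0.0468% for HCC1806, 0.0375% for MDAMB468 and 2.01% for MDAMB231, so a count of 0 among so few genes is near that background. In the 4-line average, 0 of the 5 genes measurable in every line other than PTGES were called against 2.96% of all genes, and 1 (PTGER4) had an unadjusted p under 0.05, as had 12.8% of all genes. DESeq2 called none of those genes to which it gave an adjusted p. The test of whether the change differed between lines called none of the same 5 (adjusted p 1 for each) and 0.0234% of all genes. Median log2 fold changes were 0.14 for BT549 (all genes 0.01), 0.02 for HCC1806 (0.00), -0.23 for MDAMB231 without PTGES (0) and 0.02 for MDAMB468 (0.01).

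**Figure D3:**
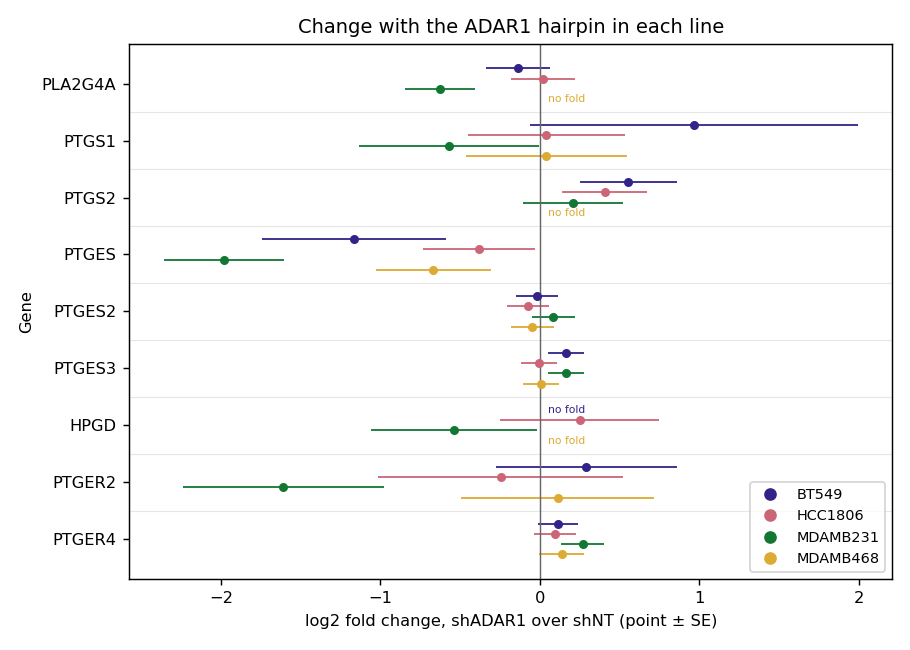
Log2 fold change of shADAR1 over shNT for each gene and line, with bars of 1 SE from the edgeR model. PTGES lies left of 0 in all 4 lines, from -0.38 in HCC1806 to -1.98 in MDAMB231, PTGER4 lies right of 0 in all 4 by at most 0.27, and "no fold" marks genes with 3 counts or fewer in every library of the line.

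Between lines, by contrast, most of the 9 genes were called in the shNT arm, as were most genes. The counts were 8 of 9 for BT549 against HCC1806 (63.5% of all genes), 7 of 9 for BT549 against MDAMB231 (56.5%), 6 of 8 for BT549 against MDAMB468 (61%), 8 of 9 for HCC1806 against MDAMB231 (59%), 8 of 9 for HCC1806 against MDAMB468 (62.9%) and 4 of 9 for MDAMB231 against MDAMB468 (61.8%). The gene not called between BT549 and HCC1806 was PLA2G4A. Between MDAMB231 and MDAMB468 the calls were PTGS2, PLA2G4A, HPGD and PTGER4, the first 3 being those with at most 1 count in MDAMB468.

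Some of the genes ran alike over the replicate numbers in both arms, and the examples given are all from HCC1806. In HCC1806, PTGS2 measured 100.5, 126 and 68.1 CPM in shNT replicates 1, 2 and 3 and 153, 177 and 60.3 in shADAR1, so both arms were highest in replicate 2 and lowest in replicate 3. PTGS1 had the same order in both arms (4.27, 5.60 and 2.55 in shNT and 4.62, 6.02 and 2.15 in shADAR1). HPGD was lowest in replicate 2 of both arms, at 0.624 and 0.669 CPM. The means of same-numbered libraries spanned 1.21 (log2) for PTGS2 and 1.15 for PTGS1, and the hairpin differences were 0.41 and 0.04. A range over 3 means and a difference between 2 are unlike measures, so their sizes are not ranked. What the numbers share, such as a day or a passage, is not given in the labels.

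**Figure D4:**
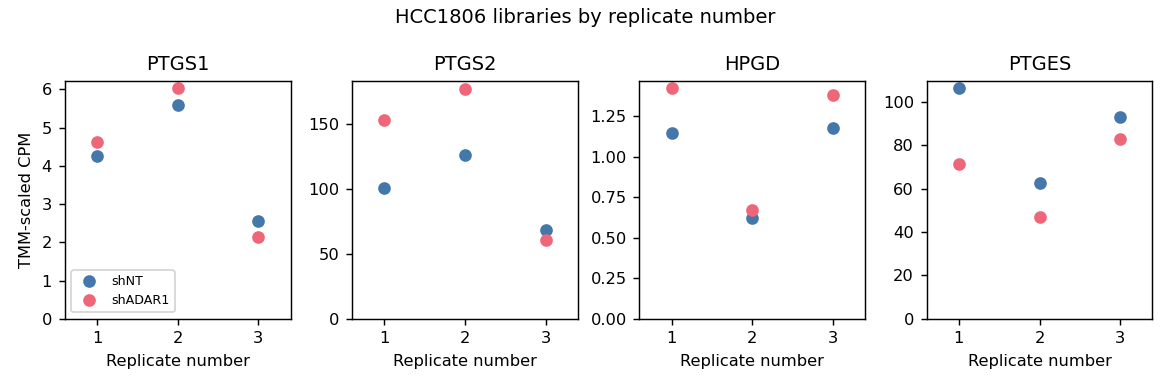
TMM-scaled CPM of PTGS1, PTGS2, HPGD and PTGES in HCC1806 by replicate number, shNT and shADAR1 in separate colours, each panel on its own axis from 0. Libraries of the same number lie close together for PTGS1, and both arms of PTGS2 are lowest in replicate 3 (68.1 and 60.3 CPM).

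The lists of other pathway genes below are counted first without a block and then with the replicate number as a replicate block, either in all 4 lines or only in BT549, HCC1806 and MDAMB231. Over all genes the block in 4 lines called 5.14% in BT549, 2.1% in HCC1806, 11.4% in MDAMB231, 1.66% in MDAMB468 and 13.2% in the average. The block in 3 lines called 2.85%, 0.81% and 8.31% in the first 3 of these and 9.55% in the average. Genes named for a call with a block were chosen after their values had been seen.

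Among other genes of arachidonic acid release, 1 of 16 tested was called in MDAMB231 and in the 4-line average, both times higher, where 2.01% and 2.96% of all genes were called. This was PLA2G4C, a cytosolic phospholipase A2 that needs no calcium. It measured 0.899 ± 0.132 CPM in MDAMB231 shNT and 2.27 ± 0.07 in shADAR1 (log2 fold change 1.34, SE 0.35, adjusted p 0.0454), with an average of 0.58 (SE 0.15, adjusted p 0.0348). Both calls were close to the threshold: 17 of 24 fits that each left out 1 library ended the first (adjusted p up to 0.213, without MDAMB231 shNT replicate 2) and 16 of 24 the second (up to 0.0811, without the same library), while the log2 fold changes stayed at 1.20 to 1.49 and 0.52 to 0.73. With the 6 libraries of MDAMB231 alone, the adjusted p of the first was 0.105. In MDAMB468 the change was -0.13 (SE 0.28). With either block the calls were 2 of 16 in MDAMB231, with DAGLB, a diacylglycerol lipase, also higher (0.51, adjusted p 0.000236 and 0.00129), and 3 of 16 in the average, with DAGLB higher and ABHD6, a monoacylglycerol lipase, lower (-0.30, adjusted p 0.0160 and 0.0322). PLA2G4C was also called in BT549 with the block in 4 lines (0.72, adjusted p 0.0238, and 0.0523 with the block in 3). The median change of the list was 0.01 in MDAMB231 and 0.07 in the average, beside 0 and 0.02 over all genes.

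None of the 12 tested genes for other prostanoid synthases was called in a line or in the average without a block. The most abundant, the carbonyl reductase CBR1 and the aldose reductase AKR1B1, had averages of 0.05 (SE 0.05) and -0.12 (SE 0.09). With the block in 4 lines the average had 3 calls, AKR1C3 (0.23, adjusted p 0.0276), AKR1B1 (-0.12, adjusted p 0.0279) and PRXL2B (-0.15, adjusted p 0.0158), of which PRXL2B was also called with the block in 3 lines (adjusted p 0.0265). AKR1C1 and AKR1C2, near-identical genes whose counts are uncertain, were called higher in MDAMB468 with the block in 4 lines (0.40 and 0.36), in a line not read as paired. Of 7 genes of breakdown and transport none was called without a block. ABCC4, a transporter that exports prostaglandins, was at 64.0 CPM in MDAMB231 shNT and 79.9 in shADAR1 (0.32, SE 0.12, adjusted p 0.246, and 0.0056 and 0.0544 with the block in 4 and in 3 lines). PTGR3, a prostaglandin reductase, was called higher there with either block (0.31, adjusted p 0.0195 and 0.0331), and in the average (0.17, adjusted p 0.00972 and 0.0191). None of 6 other prostanoid receptors was called, with or without a block. TBXA2R, the thromboxane receptor, was the most abundant of these, at 23.9 CPM in BT549 shNT and 0.306 in MDAMB468 shNT.

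Of the 5 MAPEG relatives of PTGES, membrane enzymes of glutathione and leukotriene metabolism, none was called, with or without a block. MGST1 had a level pattern in part like that of PTGES, with 172 CPM in HCC1806 shNT, 82.3 in MDAMB468, 53.4 in MDAMB231 and 0.0103 in BT549, but its changes were 0.03, 0.14 and 0.08 in HCC1806, MDAMB468 and MDAMB231. None of 11 genes of the lipoxygenase branch was called either way, with LTA4H, which makes leukotriene B4, at 0.06 (SE 0.06) in the average.

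Of 18 regulators known to induce PTGES or PTGS2, none was called in a line and 1 was called in the average without a block. CEBPB, a transcription factor of inflammatory genes, was higher by 0.23 (log2, SE 0.05, adjusted p 0.00417), with changes of 0.19, 0.31, 0.21 and 0.21 in BT549, HCC1806, MDAMB231 and MDAMB468. With the block in 4 lines 4 of the 18 were called in BT549, all lower (EGR1, FOS, JUN and FOSL1), 7 in HCC1806, all higher, and 4 in MDAMB231, with EGR1 and TNFAIP3 higher and IL1R1 and HIF1A lower. With the block in 3 lines the counts were 0, 3 and 0, those in HCC1806 including TNF (2.39, adjusted p 0.0392) and CEBPB (0.32, adjusted p 0.0414). Of 14 genes that respond to cyclic AMP or EP receptors, none was called without a block, and VEGFA, the most abundant, had an average of 0.20 (SE 0.07, adjusted p 0.173). VEGFA was called with either block in the average (adjusted p 2.77e-05 and 0.000263) and in HCC1806 (0.39, adjusted p 0.00049 and 0.00515). In MDAMB231 AREG, an EGFR ligand, was called higher with either block (0.88, adjusted p 1.19e-05 and 0.00929). With the block in 4 lines, 2, 2, 3 and 3 of the 14 were called in BT549, HCC1806, MDAMB231 and MDAMB468. All of these were higher, and in the lines only VEGFA in HCC1806 and AREG in MDAMB231 were also called with the block in 3 lines. Of 12 genes for HSP90 and its co-chaperones, the partners of p23, none was called without a block, with HSP90AA1 at -0.03 (SE 0.07) in the average. HSP90AB1 was lower in HCC1806 with either block (-0.25, adjusted p 0.0101 and 0.0421), and in MDAMB231 the co-chaperones FKBP4 (0.29) and FKBP5 (-0.39) were called with either block. In the average, the block in 4 lines called 5 of 18, 5 of 14 and 2 of 12 genes of these 3 lists, against 13.2% of all genes, and the block in 3 lines 1 in each, against 9.55%.

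The 6 genes tested that lie nearest to PTGES on chromosome 9 were ASB6, C9orf50 and PRRX2 on one side and TOR1B, TOR1A and C9orf78 on the other. None was called in any line without a block, and the fits with a block were not read for them. In MDAMB231, TOR1B was at 41.3 CPM in shNT and 47.4 in shADAR1 (0.19, SE 0.12) and ASB6 at 44.2 and 44.3 (0.00, SE 0.15). PRRX2, the next gene on one side, was at 0.0222 and 0.0234 CPM there.

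Likeness to PTGES was described over 24 libraries among 11000 genes whose log2 CPM averaged 2 or more. The highest Pearson correlations of log2 CPM were those of AFAP1L2 (0.966), IL17RE (0.964), AGR2 (0.957) and RAPGEF3 (0.957). These points are 4 lines with 6 libraries each, so the values mostly reflect the order HCC1806, MDAMB231 or MDAMB468, BT549. AGR2, for instance, was at 81.2 CPM in HCC1806 shNT and 0.0454 in BT549 shNT. For deviations from the line mean, which take that order out, the highest were CDKAL1 (0.920), STX7 (0.920), LITAF (0.903), ARHGEF39 (0.898) and TAB2 (0.894). LITAF was at 52.1 CPM in MDAMB231 shNT and 13.8 in shADAR1, 19.7 and 8.34 in BT549, 75.3 and 51.2 in HCC1806, and 86.7 and 48.2 in MDAMB468. The deviations hold both the hairpin and the replicate number, and the search picked the highest values, so these are descriptions.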

How the data were processed

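RNA was measured in 24 libraries (4 lines, 2 hairpins, 3 replicates). The files the authors deposited hold a whole-number read count per gene, CPM (the count scaled to the library total, which the deposited values equalled within 4.7e-11) and RPKM (CPM per kilobase of listed length), per the file headers. The submitters' processing notes name bcl2fastq, STAR, Subread, featureCounts and edgeR; the genome build, annotation and use of strand are not given in the sources used here. Of the genes, 34265 were in GENCODE 29 (GRCh38) and 31354 had the same start and end. A name table gave symbols for 33972.

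The counts were filtered with filterByExpr over the 8 groups (21352 genes left), scaled by TMM (factors 0.924 to 1.12) and tested with edgeR 4.0.16 (quasi-likelihood, two-sided, 1 coefficient per group) in R 4.3.3, adjusting over all genes. The script was tested on simulated data. Comparisons were shADAR1 against shNT per line, their average, a joint test between lines, and shNT line pairs. RPKM was used to compare genes. Folds against groups at 0 are bounds at 3 counts over the group. The members and lists were chosen with earlier results of these data known. Named genes were the members, list genes called (otherwise the 2 most abundant), 3 neighbours per side and the 5 most alike, of which 1 is not reported here, nor is 1 list gene called with a block.

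Correlations of same-numbered libraries' deviations from their group means were 0.139 to 0.25 (BT549), 0.242 to 0.443 (HCC1806) and 0.149 to 0.348 (MDAMB231), each over 0.1. In MDAMB468 they were 0.165, 0.166 and 0.0651, which overlap those of BT549 and MDAMB231. Because not all passed 0.1 there, only the first 3 lines were read as paired. The block in those 3 lines was not planned, and its pairing was read from these same libraries. Where separate cultures are not documented beyond the replicate label, p-values measure the spread between these libraries. Alternatives were DESeq2 1.42.0, upper-quartile and RLE scaling, other filters, the replicate block, single-line fits and leaving out each library.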

Additional observations from a re-analysis of the deposited data

How the results depend on the processing

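Of the counts of called genes, those in BT549 and HCC1806, and those of the test between lines, were the same under every alternative run. With the replicate block, called genes became 1 of 8 in MDAMB231 (PTGER2; also 1 with the block in 3 lines), 1 of 6 in MDAMB468 (PTGES, -0.65, adjusted p 0.0281, in a line whose numbers were not read as pairs) and 1 of 5 in the average (PTGES3). A minimum of 10 counts in every library left 18 member comparisons between lines, of which 14 were called, against 41 of 53; it gave no value for PTGES, PTGS1, PTGS2, PLA2G4A, HPGD or PTGER2. Leaving out each library in turn, the number of members called between arms was 0 in each line, in the average and in the test between lines, leaving aside PTGES where it was chosen, and 39 to 42 were called between lines. Signs near 0 turned in PTGES2 in BT549 (0.0046 and 0.00526 with the replicate block in 4 and in 3 lines), PTGS1 in HCC1806 (-0.00553 and -0.00601 with the same) and PTGES3 in MDAMB468 (-0.00816 with upper-quartile scaling and -0.00575 with the line's 6 libraries). Leaving out single libraries also turned signs, always without a call, over these ranges: PTGES2 -0.19 to 0.139 in BT549, -0.014 to 0.179 in MDAMB231, -0.0873 to 0.0151 in MDAMB468 and -0.0554 to 0.0268 in the average; PTGES3 -0.108 to 0.133 in HCC1806 and -0.0237 to 0.0296 in MDAMB468; PTGS1 -0.296 to 0.386 in HCC1806, -0.371 to 0.851 in MDAMB468 and -0.0634 to 0.322 in the average; PLA2G4A -0.0841 to 0.22 and HPGD -6.55e-05 to 0.523 in HCC1806; PTGER2 -1.49 to 1.51 in HCC1806, -0.0902 to 0.515 in MDAMB468 and -0.674 to 0.0778 in the average; PTGER4 -0.041 to 0.246 in HCC1806. The cause was not tested. Over all genes, the replicate block called 1098, 448, 2434 and 354 genes in BT549, HCC1806, MDAMB231 and MDAMB468, 2820 in the average and 1002 between lines, against 101, 10, 429, 8, 632 and 5; DESeq2 called 279, 40, 786, 42, 1045 and 123. Libraries with few counts limit PTGER2, HPGD and PTGS1.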
